A study of Mus musculus with 12 samples.

Results

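Mesothelial genes are described here as a set of 9: Msln, Upk3b, Upk1b, Wt1, Lrrn4, Cdh3, Bnc1, Aldh1a2 and Gpm6a. They were chosen by name as genes that mark the mesothelium, and every probe set paired with 1 of them alone was taken, which gave 15 of the 45101 probe sets on the array and 9 of the 18194 genes tested. All 9 were measured. The study profiled whole lungs of C57BL/6 mice on Affymetrix arrays at day 21 after an endotracheal injection. FIZZ2 is the secreted resistin-like protein encoded by Retnlb, and bleomycin is a DNA-damaging drug that is used to scar mouse lungs. The groups were FIZZ2 knockout lungs after bleomycin, FIZZ2 knockout lungs after saline, wild-type lungs after bleomycin and wild-type lungs after saline, with 3 arrays each. All lungs had been perfused with PBS before RNA was extracted. Neither the knockout allele nor the age or sex of the mice is given in the sources used here.

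The mesothelium is a single sheet of flattened cells that covers the lung surface as the visceral pleura and also lines the chest wall, the pericardium and the peritoneum. Its cells carry epithelial and mesenchymal features together, secrete lubricant, and arise from embryonic cells that express the transcription factor WT1 and make retinoic acid. Mesothelin and its binding partner MUC16 are surface proteins of these cells, and uroplakins, best known from the bladder lining, are also made in them. In whole-lung RNA the sheet is a small part of the sample, so how much pleura, pericardium or mediastinal tissue was harvested bears on these genes as well as what each cell makes. Fewer mesothelial cells and less RNA per cell cannot be told apart in such samples.

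Lung markers were high on every array: the mean log2 level of 8 lung genes (Sftpc, Sftpb, Sftpa1, Ager, Scgb1a1, Foxj1, Cdh5 and Marco) lay between 11.63 and 11.89 on all 12 arrays. It was 11.63 to 11.69 in wild-type bleomycin lungs, against 11.83 to 11.88 in wild-type saline lungs. In that comparison 4 of the 8 were called lower, against 14.4% of all genes. In knockout lungs the mean was 11.74 to 11.89 after bleomycin, against 11.74 to 11.84 after saline. The part of this shift in the wild-type results was not tested. Array medians ran from 5.58 to 5.68, and arrays of the same group correlated at 0.988 to 0.997. Retnlb, the targeted gene, read 3.49 to 3.72 in knockout bleomycin lungs and 3.54 to 3.83 in knockout saline lungs. It read 3.80 to 4.13 in wild-type bleomycin lungs and 3.57 to 3.84 in wild-type saline lungs. These values are too low to check the genotype labels. Within the mesothelial genes, wild-type saline replicate 1 stood low and knockout saline replicate 3 stood high against their groups. The differences of Msln, Upk1b, Upk3b and Lrrn4 after saline are given with and without these arrays. Both stood toward the other genotype, so leaving either out widened these differences. With each saline array left out in turn they ran from -1.10 to -0.59 for Msln and from -0.83 to -0.48 for Upk1b. The ranges were -0.74 to -0.34 for Upk3b and -0.69 to -0.25 for Lrrn4. Over all probe sets, wild-type saline replicates 1, 2 and 3 correlated with their group at a mean of 0.994, 0.991 and 0.992. Nothing in the labels says that replicates came from different animals; the p-values therefore rest on the spread among these samples, which may be technical.

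A gene was called at an adjusted p under 0.05 from limma, a linear model fitted to all genes with Benjamini-Hochberg adjustment over all 18194. Values are log2 expression on the RMA scale, on which a difference of 1 is a doubling, and each gene is given by the brightest of its probe sets unless another is named. In wild-type lungs after bleomycin, 3 of the 9 mesothelial genes were called, 1 higher (Msln) and 2 lower (Gpm6a and Bnc1), against 27.7% of all genes called in that comparison (13.3% higher and 14.4% lower). In knockout lungs after bleomycin, limma called 0 of 9, with 0 of 9 at an unadjusted p under 0.05, against 3.26% of all genes called and 3267 genes at that unadjusted p. After bleomycin, knockout against wild type gave 1 call of 9 (Msln, lower), against 15.4% of all genes in either direction and 7.89% lower. After saline, knockout against wild type gave 0 calls by limma and 4 genes of 9 at an unadjusted p under 0.05, against 0.489% of all genes called and 10.1% at that unadjusted p. Averaged over both treatments, 2 of the 9 were lower in knockout lungs (Msln and Upk1b), against 8.96% of all genes called and 4.93% called lower. Averaged over both genotypes, 2 of the 9 were called after bleomycin, Msln higher and Gpm6a lower, against 27.1% of all genes (13.4% higher and 13.7% lower).

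The median change of the 9 after bleomycin was 0.05 in wild type and -0.00 in knockout, beside -0.04 and 0.01 over all genes. The median of the knockout minus wild-type differences was -0.26 after bleomycin and -0.44 after saline, beside 0.03 and -0.02 over all genes. The fitted difference was below 0 for 8 of the 9 genes after bleomycin, Gpm6a being the exception, and for 9 of 9 after saline, beside 44.4% and 56.3% of all genes. These counts include differences smaller than their SE, for Bnc1 after bleomycin (-0.09 ± 0.16) and Wt1 after saline (-0.02 ± 0.14). These 9 values are not independent, since the genes vary together from array to array.

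**Figure D1:**
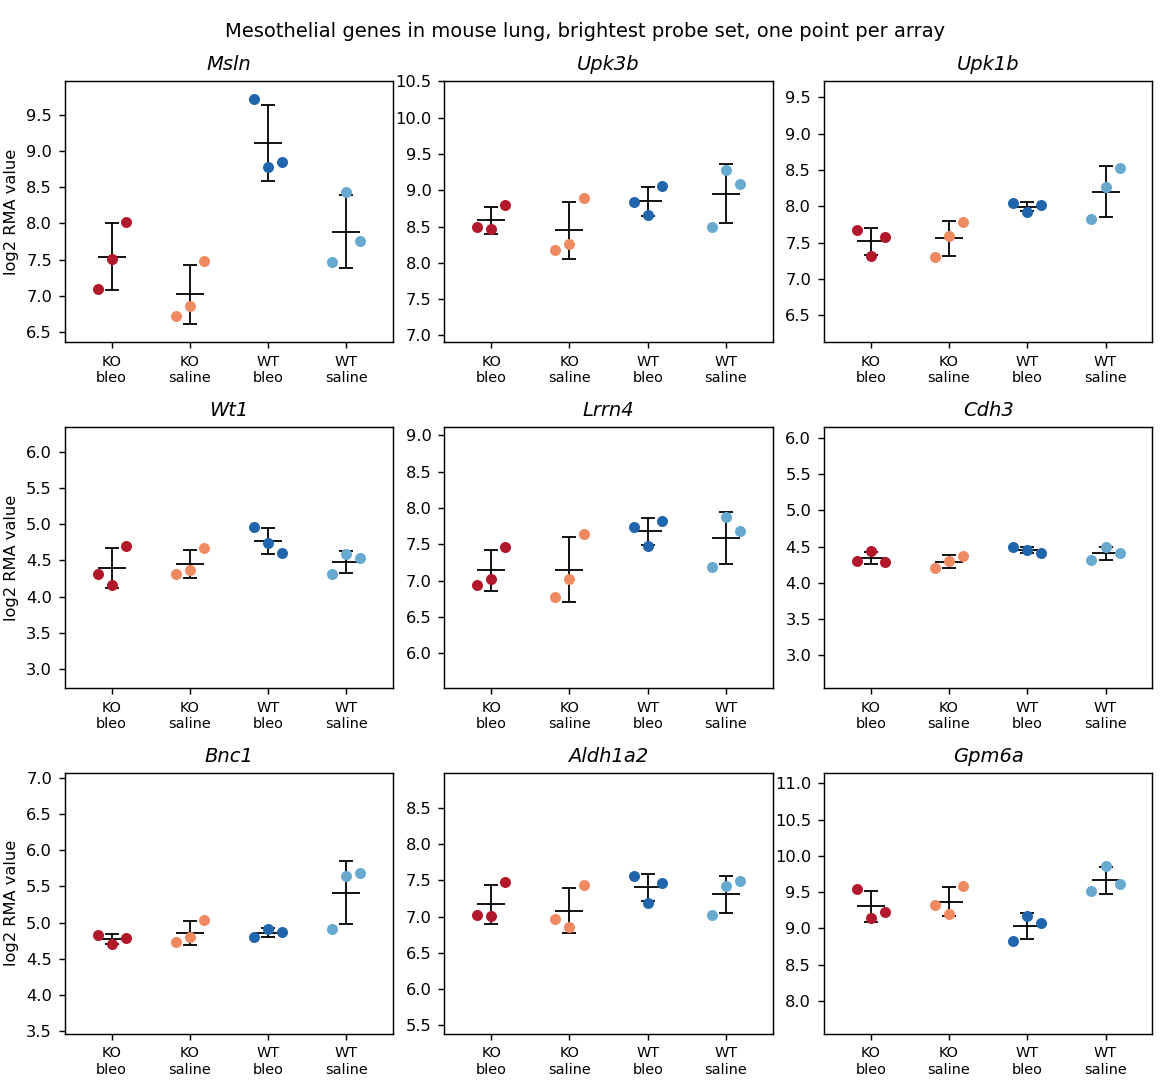
Log2 RMA value of each mesothelial gene (vertical axis, 3.6 units high in each panel) in knockout and wild-type lungs after bleomycin and saline; each point is an array and the bars give the mean and SD of 3 arrays. Msln in wild-type bleomycin lungs lies at 8.78 to 9.71, above the arrays of the other 3 groups, and the 4 groups of Cdh3 lie within 4.20 to 4.50.

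Msln encodes mesothelin, a glycoprotein held on the surface of mesothelial cells by a lipid anchor. It read 7.10, 7.50 and 8.02 in knockout lungs after bleomycin and 6.72, 6.86 and 7.48 in knockout lungs after saline. It read 9.71, 8.78 and 8.84 in wild-type lungs after bleomycin and 7.46, 8.44 and 7.76 in wild-type lungs after saline. The 3 wild-type bleomycin arrays were the highest of the 12, and the arrays of the other 3 groups overlapped one another in part.

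In wild type, Msln was 2.34-fold higher after bleomycin than after saline (log2 change 1.22 ± 0.31, SE; limma adjusted p = 0.0100), and no array overlapped between those groups. In knockout lungs the change was 0.52 ± 0.31 (95% confidence interval -0.15 to 1.19; limma adjusted p = 0.417). After bleomycin Msln was 2.97-fold lower in knockout than in wild-type lungs (log2 difference -1.57 ± 0.31; limma adjusted p = 0.00479). After saline the difference was -0.87 ± 0.31, the groups overlapped, and limma gave an adjusted p of 0.338. It was -1.08 without wild-type saline replicate 1 (limma adjusted p = 0.315) and -1.10 without knockout saline replicate 3 (limma adjusted p = 0.275). Averaged over treatments, Msln was 2.33-fold lower in knockout lungs (limma adjusted p = 0.00504).

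The responses of the 2 genotypes themselves were not called different: the knockout response minus the wild-type response was -0.70 (95% confidence interval -1.65 to 0.25; limma adjusted p = 0.381). For this test of the difference limma called 0 of the 9 genes, with 1 of 9 at an unadjusted p under 0.05, against 5.02% of all genes called and 21.8% at that unadjusted p. Both calls of Msln, with bleomycin in wild type and against wild type after bleomycin, were kept when any array was left out, with changes of 0.92 to 1.50 and of -1.81 to -1.27. Markers of other cells were also higher in the same lungs: the mean log2 level of 9 basal and injury keratin genes was 5.08 to 5.49 in wild-type bleomycin lungs, against 4.65 to 4.87 in wild-type saline lungs, with 4 of the 9 called higher and 0 lower. In knockout lungs that mean was 4.71 to 4.96 after bleomycin, against 4.53 to 4.88 after saline. The mean of 10 fibroblast genes was 10.50 to 10.61 after bleomycin, against 9.97 to 10.25 after saline, in wild type, with 4 of them called higher and 3 lower. In knockout lungs it was 10.17 to 10.45 after bleomycin, against 9.95 to 10.21 after saline, with 4 called higher and 0 lower. Over all genes, 13.3% were called higher and 14.4% lower after bleomycin in wild type, and 3.26% in either direction in knockout. The part of these markers in the Msln result was not tested.

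**Figure D2:**
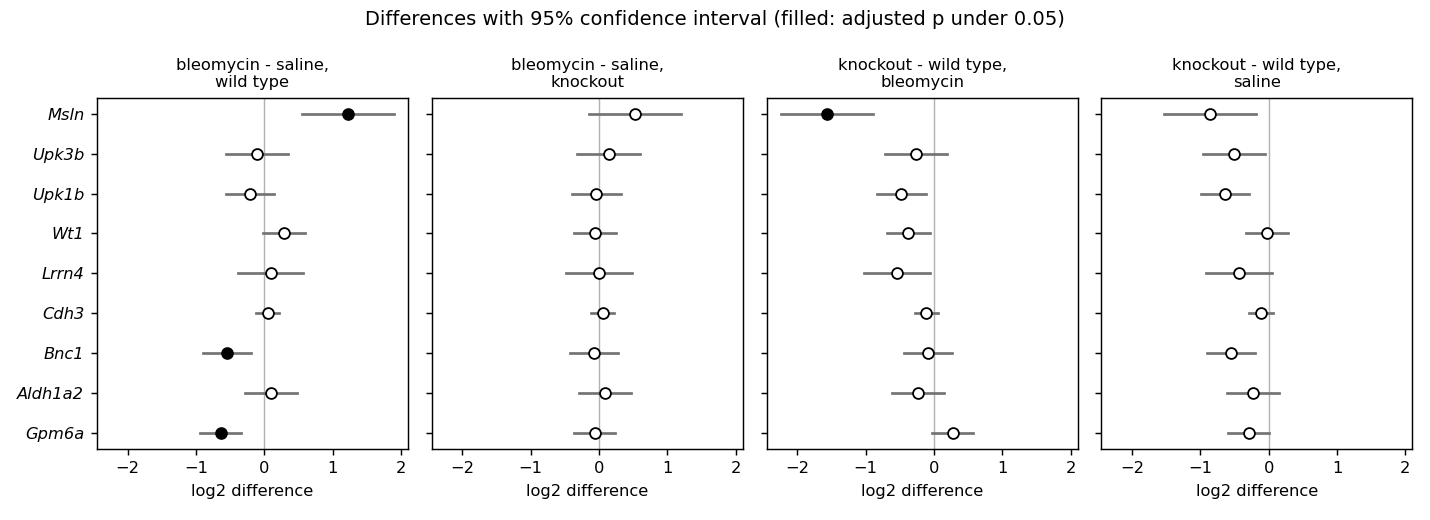
Log2 difference (horizontal axis) with its 95% confidence interval for each mesothelial gene in 4 comparisons; filled points have a limma adjusted p under 0.05. Filled points stand at Msln (1.22), Bnc1 (-0.55) and Gpm6a (-0.63) for bleomycin in wild type and at Msln (-1.57) for knockout against wild type after bleomycin, and there are none in the other 2 panels.

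Upk1b and Upk3b encode uroplakins, membrane proteins of the bladder lining that mesothelial cells also make; uroplakin 1b belongs to the tetraspanins. Upk1b, by its brightest probe set (1457065_at), read 7.67, 7.31 and 7.58 in knockout bleomycin lungs and 7.30, 7.60 and 7.78 in knockout saline lungs. It read 8.05, 7.92 and 8.02 in wild-type bleomycin lungs and 7.82, 8.26 and 8.52 in wild-type saline lungs. Every knockout array was below every wild-type array, within each treatment and across both. Averaged over treatments, Upk1b was 1.47-fold lower in knockout lungs (log2 difference -0.56 ± 0.12; limma adjusted p = 0.0101). Within treatments the difference was -0.48 after bleomycin (limma adjusted p = 0.0676) and -0.64 after saline (limma adjusted p = 0.145), both of which missed the threshold. After saline it was -0.83 and passed without wild-type saline replicate 1 (limma adjusted p = 0.0386), and it was -0.75 without knockout saline replicate 3 (limma adjusted p = 0.153). The change with bleomycin was -0.20 in wild type (limma adjusted p = 0.389) and -0.04 in knockout (limma adjusted p = 0.938).

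The other 3 Upk1b probe sets were lower in knockout lungs too, and 2 of them by more. Probe set 1435831_at read 6.22, 5.94 and 6.23 in knockout bleomycin lungs, 5.97, 6.04 and 6.59 in knockout saline lungs, 8.15, 7.53 and 7.56 in wild-type bleomycin lungs and 7.79, 8.52 and 8.56 in wild-type saline lungs. The gap between its highest knockout and lowest wild-type array was wider than the spread within any group. With all probe sets fitted separately, it was 3.07-fold lower in knockout lungs after bleomycin (limma adjusted p = 0.00118) and 4.25-fold lower after saline (limma adjusted p = 0.00141). Probe set 1455464_x_at, designed from the same transcript accession, was 1.92-fold lower after bleomycin (limma adjusted p = 0.00384) and 2.51-fold lower after saline (limma adjusted p = 0.00315). Probe set 1439760_x_at had differences of -0.48 and -0.64, close to those of the brightest, with limma adjusted p of 0.0706 and 0.169.

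All 4 probe sets separated knockout from wild-type arrays without overlap in both treatments, and all 4 were called lower averaged over treatments, with limma adjusted p from 7.39e-05 to 0.0194. When the 4 were averaged into 1 value, the gene was called within each treatment, at -0.88 after bleomycin (limma adjusted p = 0.00349) and -1.17 after saline (limma adjusted p = 0.00651). Names ending in _x_at mark probe sets whose probes may also match other transcripts.

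**Figure D3:**
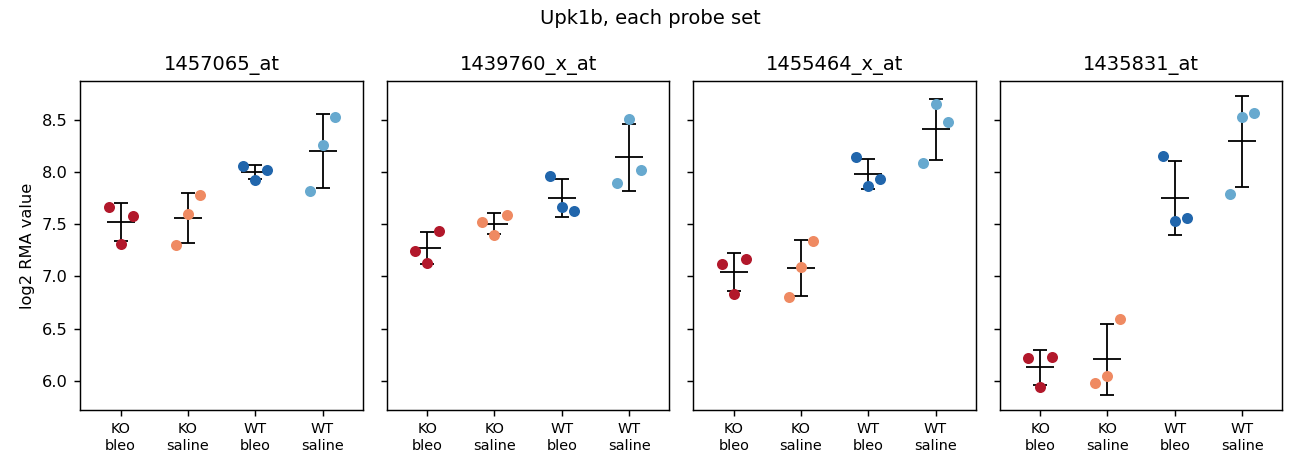
Log2 RMA value (vertical axis, shared) of each Upk1b probe set on every array, by group; points are arrays and bars give the mean and SD of 3 arrays. Knockout arrays lie below wild-type arrays in every panel, with the widest gap at 1435831_at (5.94 to 6.59 in knockout, against 7.53 to 8.56 in wild type).

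Upk1b lies on chromosome 16, the chromosome of Retnlb, with 41 measured genes between them; the other 8 mesothelial genes lie on other chromosomes. Of the 40 measured genes nearest Upk1b, 20 on each side, 7 were called between knockout and wild type averaged over treatments, 2 higher and 5 lower, which is 17.5% against 8.96% of all genes. Of the 41 between Upk1b and Retnlb, 2 were higher and 6 lower, or 19.5%; the 20 neighbours on that side are among these 41. Over the whole chromosome the share was 10.6% of 593 genes. Named after their values were seen, B4galt4, next to Upk1b in the gene order and encoding a galactosyltransferase, was lower in knockout lungs (-0.72; limma adjusted p = 0.000337). Timmdc1, a mitochondrial complex I assembly factor and also a near neighbour, was higher (1.01; limma adjusted p = 2.7e-05). Both lie on the side of Upk1b away from Retnlb. The 5 nearest measured genes on the Retnlb side were not called (limma adjusted p from 0.0976 to 0.891). DNA that stays linked to a targeted allele and an effect of the missing protein cannot be told apart for genes of this chromosome with the groups at hand.

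Upk3b read 8.49, 8.47 and 8.79 in knockout bleomycin lungs, 8.18, 8.26 and 8.90 in knockout saline lungs, 8.83, 8.66 and 9.05 in wild-type bleomycin lungs and 8.49, 9.28 and 9.08 in wild-type saline lungs. All groups overlapped their partners, and the 3 values of each saline group spread over more than those of its bleomycin group. Its difference between knockout and wild type was -0.26 after bleomycin (limma adjusted p = 0.449) and -0.51 after saline (limma adjusted p = 0.442), and the second probe set gave -0.37 and -0.42. The saline difference was -0.74 without wild-type saline replicate 1 (limma adjusted p = 0.238) and -0.73 without knockout saline replicate 3 (limma adjusted p = 0.209). Averaged over treatments the difference was -0.39 (95% confidence interval -0.71 to -0.06), with a limma adjusted p of 0.140. It was called without wild-type saline replicate 1 (-0.50; limma adjusted p = 0.0428) and without knockout saline replicate 3 (-0.50; limma adjusted p = 0.0458). Both arrays had been picked by their values in these genes. With each array left out in turn the difference ran from -0.50 to -0.30 (limma adjusted p from 0.0428 to 0.281).

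Lrrn4 encodes a membrane protein with leucine-rich repeats that is made in neurons and in mesothelium. It read 6.94, 7.03 and 7.46 in knockout bleomycin lungs, 6.77, 7.03 and 7.64 in knockout saline lungs, 7.74, 7.47 and 7.83 in wild-type bleomycin lungs and 7.19, 7.88 and 7.69 in wild-type saline lungs. After bleomycin its knockout arrays lay below the wild-type arrays by 7.46 against 7.47 at the nearest pair, and after saline the groups overlapped. With Msln and Upk1b, it made 3 of 9 genes with non-overlapping arrays after bleomycin, all lower in knockout, where 33.3% of all genes did not overlap in either direction and 15.4% lay lower. After saline that count was 1 of 9, Upk1b, lower in knockout, against 16.7% of all genes in either direction and 9.45% lower.

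The Lrrn4 difference was -0.54 ± 0.22 after bleomycin (limma adjusted p = 0.129) and -0.44 ± 0.22 after saline (limma adjusted p = 0.542). After saline it was -0.64 without wild-type saline replicate 1 (limma adjusted p = 0.386) and -0.69 without knockout saline replicate 3 (limma adjusted p = 0.264). Averaged over treatments it was -0.49 ± 0.16 (limma adjusted p = 0.0742). It passed the threshold when wild-type saline replicate 1 (limma adjusted p = 0.0397), knockout saline replicate 3 (limma adjusted p = 0.0218) or knockout bleomycin replicate 3 (limma adjusted p = 0.0491) was left out. With each array left out in turn the averaged difference ran from -0.61 to -0.39 (limma adjusted p from 0.0218 to 0.171). Bleomycin changed Lrrn4 by 0.09 in wild type and -0.00 in knockout, both within their SE of 0.22.

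Gpm6a encodes a membrane glycoprotein of the proteolipid protein family that is abundant in neurons and is also found in pleural mesothelium. It read 9.55, 9.15 and 9.22 in knockout bleomycin lungs and 9.32, 9.20 and 9.58 in knockout saline lungs. It read 8.83, 9.17 and 9.08 in wild-type bleomycin lungs and 9.51, 9.86 and 9.61 in wild-type saline lungs. The wild-type bleomycin arrays lay below all wild-type saline arrays, while the knockout groups overlapped.

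In wild type, Gpm6a fell 1.55-fold after bleomycin (log2 change -0.63 ± 0.14; limma adjusted p = 0.00412), and the call held with each array left out in turn. Its second probe set (1426442_at) read 7.70, 7.20 and 7.29 in knockout bleomycin lungs, 7.16, 7.32 and 7.69 in knockout saline lungs, 6.80, 7.38 and 7.37 in wild-type bleomycin lungs and 7.55, 7.38 and 7.86 in wild-type saline lungs. For that probe set the wild-type change was -0.42 ± 0.19 (limma adjusted p = 0.169), which missed the threshold. In knockout lungs the change of the brightest probe set was -0.06 (95% confidence interval -0.36 to 0.24; limma adjusted p = 0.863). The knockout response minus the wild-type response was 0.57 (95% confidence interval 0.147 to 0.995), the gene with an unadjusted p under 0.05 in that comparison, at a limma adjusted p of 0.111. Averaged over genotypes the fall was -0.35 (limma adjusted p = 0.0178), and it was -0.28 (limma adjusted p = 0.0790) when the probe sets were averaged.

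Lists of other cells were read in the same lungs. The mean of 12 heart and pulmonary vein muscle genes was 6.92 to 7.49 after bleomycin, against 8.57 to 9.13 after saline, in wild type, with 0 of the 12 called higher and 11 lower. In knockout lungs it was 6.81 to 8.88 after bleomycin, against 8.66 to 9.28 after saline, with 2 called lower. The mean of 10 alveolar type 1 cell genes was 11.27 to 11.77 after bleomycin, against 11.80 to 11.87 after saline, in wild type, with 2 called lower. In knockout lungs it was 11.78 to 11.94 after bleomycin, against 11.79 to 11.92 after saline. Over all genes, 14.4% were called lower after bleomycin in wild type, and 3.26% were called in either direction in knockout. The part of these cells in the fall of Gpm6a was not tested.

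Cdh3 encodes P-cadherin, an adhesion protein of basal epithelia and mesothelium. Its probe set 1426673_at read 4.29 to 4.44 in knockout bleomycin lungs, 4.20 to 4.37 in knockout saline lungs, 4.42 to 4.50 in wild-type bleomycin lungs and 4.31 to 4.50 in wild-type saline lungs. All of these fell between the 32.1 and 36.5 percentile of the probe sets on their array, and the second probe set read 3.71 to 3.90 on all 12. The 2 probe sets hardly followed each other over the arrays (r = 0.18, a description over 12 arrays that share the group differences). Its limma adjusted p was 0.393 for knockout against wild type after bleomycin and 0.696 for bleomycin in wild type.

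Wt1 encodes the zinc finger transcription factor that marks mesothelium from the embryo on. It read 4.32, 4.16 and 4.69 in knockout bleomycin lungs, 4.32, 4.37 and 4.67 in knockout saline lungs, 4.96, 4.74 and 4.60 in wild-type bleomycin lungs and 4.31, 4.59 and 4.54 in wild-type saline lungs. The wild-type bleomycin arrays lay just above the wild-type saline arrays, by 4.60 against 4.59 at the nearest pair. The change was 0.29 ± 0.14 (limma adjusted p = 0.160), or 0.36 (limma adjusted p = 0.0351) with arrays weighted by quality. After bleomycin the knockout difference was -0.37 (limma adjusted p = 0.103), and without knockout bleomycin replicate 3 it was -0.53 (limma adjusted p = 0.0262). With each bleomycin array left out in turn that difference ran from -0.53 to -0.26. The signal was low throughout, between the 31.2 and 42.4 percentile of the probe sets on each array.

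Bnc1 encodes basonuclin 1, a zinc finger protein of basal keratinocytes, germ cells and mesothelium. It read 4.84, 4.71 and 4.78 in knockout bleomycin lungs, 4.73, 4.80 and 5.04 in knockout saline lungs, 4.80, 4.92 and 4.87 in wild-type bleomycin lungs and 4.92, 5.64 and 5.69 in wild-type saline lungs. Wild-type saline replicates 2 and 3 stood above the other 10 arrays, and replicate 1 of that group lay with the rest. In wild type, Bnc1 fell 1.47-fold after bleomycin (log2 change -0.55 ± 0.16; limma adjusted p = 0.0223), with both groups holding an array at 4.92.

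The Bnc1 call was lost with array weights (-0.16; limma adjusted p = 0.444), with a fit of the wild-type groups alone (limma adjusted p = 0.0676), and without wild-type saline replicate 2 (limma adjusted p = 0.0885), wild-type saline replicate 3 (limma adjusted p = 0.0895), wild-type bleomycin replicate 1 (limma adjusted p = 0.0631) or wild-type bleomycin replicate 3 (limma adjusted p = 0.0535). After saline the knockout difference was -0.56 (limma adjusted p = 0.216), and without wild-type saline replicate 1 it was -0.81 (limma adjusted p = 0.00517). Without that same array the knockout response minus the wild-type response was 0.72 (limma adjusted p = 0.0209), against 0.47 (limma adjusted p = 0.255) with it. With each array left out in turn, the saline difference ran from -0.81 to -0.42 and the difference between responses from 0.33 to 0.72.

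Aldh1a2 encodes the retinaldehyde dehydrogenase that makes retinoic acid in the embryonic body wall and in adult mesothelium. It read 7.02, 7.01 and 7.47 in knockout bleomycin lungs, 6.96, 6.85 and 7.43 in knockout saline lungs, 7.55, 7.19 and 7.47 in wild-type bleomycin lungs and 7.02, 7.42 and 7.49 in wild-type saline lungs. Every group overlapped its partner, and replicate 3 was the highest of both knockout groups. The change with bleomycin was 0.09 in wild type (95% confidence interval -0.29 to 0.48; limma adjusted p = 0.731) and 0.09 in knockout (95% confidence interval -0.29 to 0.47; limma adjusted p = 0.850).

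The other genes of retinoic acid handling were read from a list. Of 19 measured genes that carry, store, make, degrade or sense retinoids, 1 rose and 5 fell after bleomycin in wild type, against 27.7% of all genes called, with a median of -0.17 beside -0.04 over all genes. The riser was Crabp2, a retinoic acid binding protein (4.02-fold; limma adjusted p = 0.0386). In knockout 1 rose (Crabp1, of the same family, 0.67; limma adjusted p = 0.0246) and 0 fell, against 3.26% of all genes called. Lrat, which esterifies retinol for storage, fell 4.05-fold in wild-type lungs (log2 change -2.02 ± 0.27; limma adjusted p = 0.000143) and was -0.40 in knockout lungs (limma adjusted p = 0.490). The difference between those responses was 1.62 ± 0.39 (limma adjusted p = 0.0333), and after bleomycin Lrat was 2.90-fold higher in knockout than in wild-type lungs (limma adjusted p = 0.00250). Aldh1a1, the sister enzyme of Aldh1a2, fell 1.60-fold in wild-type lungs (limma adjusted p = 0.000644), and Dhrs3, which turns retinaldehyde back to retinol, fell 1.35-fold (limma adjusted p = 0.00945). Rbp4, the retinol carrier of blood, fell 1.96-fold in wild-type lungs (limma adjusted p = 0.00401). Between knockout and wild type after bleomycin 4 of the 19 were higher and 0 lower, against 15.4% of all genes called. After saline limma called 0 of the 19, with 2 at an unadjusted p under 0.05. Among all genes, 0.489% were called after saline and 10.1% had that unadjusted p.

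Upk3b, Lrrn4 and Aldh1a2 were the members that most nearly moved together from array to array. Over the 12 arrays r was 0.943 for Upk3b with Lrrn4, 0.906 for Lrrn4 with Aldh1a2 and 0.881 for Upk3b with Aldh1a2. After each group's mean was taken off, the same pairs gave 0.965, 0.908 and 0.886, so the shared pattern was also present within groups. Msln with Wt1 gave 0.821 and Upk1b with Bnc1 gave 0.853 within groups. The 28 pairs without Gpm6a ran from 0.268 to 0.965 within groups with a median of 0.675, and the 8 pairs with Gpm6a from 0.002 to 0.571 with a median of 0.265. These are descriptions over 12 arrays, and genes read on 1 array share its harvest, extraction and hybridization.

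**Figure D4:**
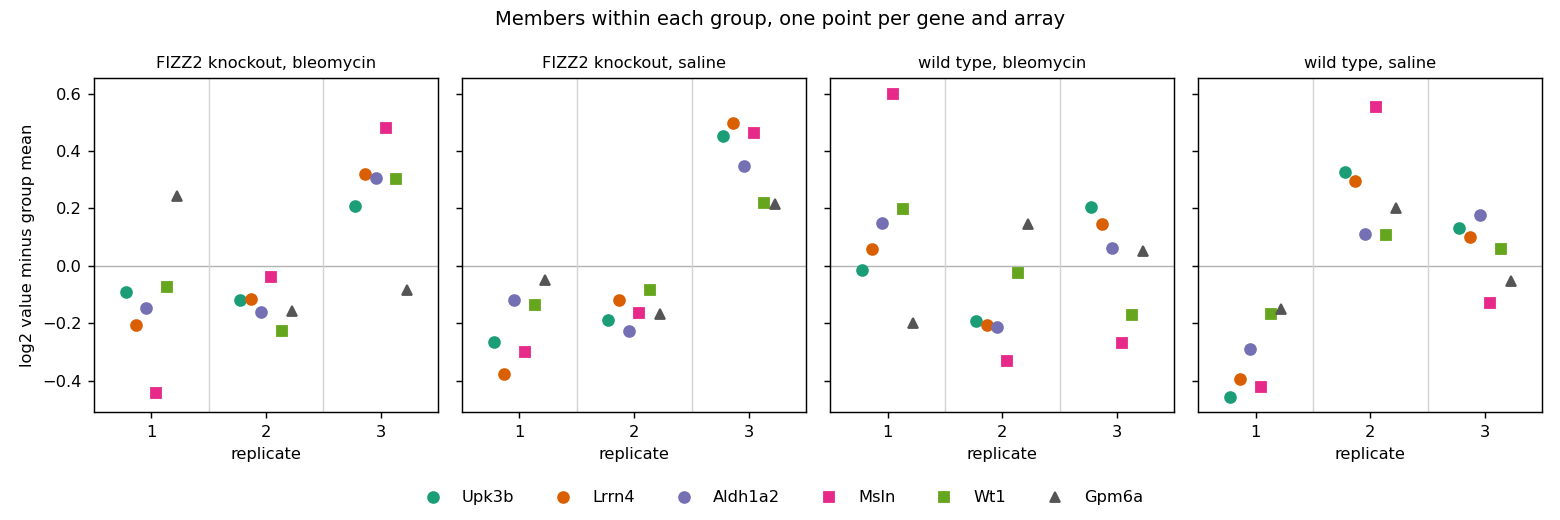
Log2 value minus the group mean (vertical axis) of 6 mesothelial genes in each replicate (horizontal axis) of the 4 groups; each point is a gene on an array. Upk3b, Lrrn4 and Aldh1a2 are low together in wild-type saline replicate 1 and high together in knockout saline replicate 3 and knockout bleomycin replicate 3.

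The promoters of this trio are shown because the 3 genes moved together. Each line gives the 250 bases before the transcript start, 5′ to 3′ on the gene's strand, from RefSeq on GRCm38.p6: chr5:136038246-136038495 on the plus strand for Upk3b, chr2:132880863-132881112 on the minus strand for Lrrn4 and chr9:71215539-71215788 on the plus strand for Aldh1a2. Capitals mark the word GGAATG, or CATTCC where it lies on the other strand, which TEAD factors of the Hippo pathway bind. The Lrrn4 window lies inside the span that the gene table of the same build gives for Lrrn4, so it precedes 1 annotated start and is not shown to be the promoter used in lung.
Upk3b: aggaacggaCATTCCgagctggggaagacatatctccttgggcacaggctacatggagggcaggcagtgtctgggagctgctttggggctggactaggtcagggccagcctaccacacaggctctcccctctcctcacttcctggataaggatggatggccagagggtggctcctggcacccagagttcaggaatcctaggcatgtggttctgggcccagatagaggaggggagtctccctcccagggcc
Lrrn4: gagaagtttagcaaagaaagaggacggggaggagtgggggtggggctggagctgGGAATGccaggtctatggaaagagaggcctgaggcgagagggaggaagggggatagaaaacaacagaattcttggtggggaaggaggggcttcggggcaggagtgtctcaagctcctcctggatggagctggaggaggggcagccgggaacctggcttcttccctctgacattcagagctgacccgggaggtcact
Aldh1a2: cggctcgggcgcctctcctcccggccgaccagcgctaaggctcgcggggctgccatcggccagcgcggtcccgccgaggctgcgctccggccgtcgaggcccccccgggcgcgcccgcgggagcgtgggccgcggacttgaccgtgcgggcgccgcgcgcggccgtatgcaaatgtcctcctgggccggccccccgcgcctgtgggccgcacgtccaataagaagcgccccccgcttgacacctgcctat
GGAATG stood 241 to 236 bases before the start of Upk3b on the other strand and 196 to 191 bases before that of Lrrn4, and it was not found in the Aldh1a2 window. It is present in 12.6% of the 32851 promoter windows of that length searched on both strands. The windows of Upk3b, Lrrn4 and Aldh1a2 were 60.8%, 59.2% and 77.6% G or C, against a median of 52.4%. Other words searched for were not found in these 3 windows. They were the core word of WT1 binding, GTGGGAG, held by 8.25% of all windows, and the word GTGGGCG of the related factor EGR1, which WT1 also binds, held by 7.02%. They also included the binding word of GATA factors, written as AGATAA and held by 9.99% of all windows, and the E-box word, which is written as CACGTG and was held by 6.02%. Of the 5 members with a window, Gpm6a also held GGAATG, 125 to 120 bases before 1 of its 2 starts, and Bnc1 held GTGGGCG on the other strand, 46 to 40 bases before its start. A word found is not a site shown to be bound, and a word not found speaks only for the letters of this window.

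The mean log2 level of the 9 genes was 6.64 to 6.92 in knockout bleomycin lungs, 6.50 to 6.99 in knockout saline lungs, 7.03 to 7.22 in wild-type bleomycin lungs and 6.78 to 7.32 in wild-type saline lungs. After bleomycin no knockout array reached a wild-type array, and after saline knockout replicate 3 lay above wild-type replicate 1. Among other lists, the mean of the 29 other mesothelial genes followed the mean profile of the 9 within groups at r = 0.759, red blood cell genes (3) at 0.578, skeletal muscle genes (8) at 0.489, lung genes (8) at 0.376, heart and pulmonary vein muscle genes (12) at 0.327 and adipocyte genes (8) at -0.376. Adipocyte genes had a mean of 5.41 to 6.92 in knockout bleomycin lungs, 6.47 to 7.91 in knockout saline lungs, 5.86 to 5.98 in wild-type bleomycin lungs and 5.95 to 6.87 in wild-type saline lungs. The lists not named here followed the profile within groups at r from -0.215 (fibroblast genes) to 0.137 (thymocyte genes). The part of these tissues in the mesothelial values was not tested.

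**Figure D5:**
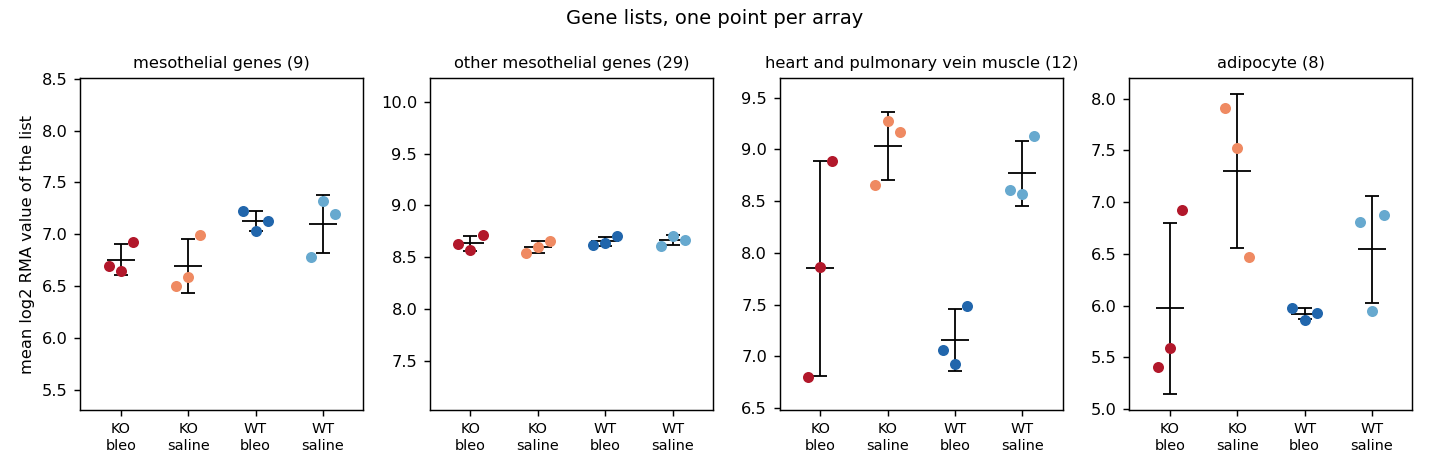
Mean log2 RMA value (vertical axis, 3.2 units high in each panel) of the 9 mesothelial genes and of 3 other lists on every array, by group, with the mean and SD of 3 arrays as bars. The mesothelial means span 6.50 to 7.32, while heart and pulmonary vein muscle genes span 6.81 to 9.28, with lower means after bleomycin than after saline in both genotypes.

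Other genes of the mesothelium were read from a list of 30, of which 29 were measured. After bleomycin 5 rose and 7 fell in wild type (median -0.05), and 1 rose and 1 fell in knockout (median 0.06). The shares of all genes called were 27.7% in wild type and 3.26% in knockout. Procr, the endothelial protein C receptor, rose 2.60-fold in wild type (limma adjusted p = 1.91e-05) and 1.55-fold in knockout (limma adjusted p = 0.0325). Krt18, a keratin of simple epithelia, rose 1.55-fold in wild type (limma adjusted p = 0.000229). Tcf21, a transcription factor of lung fibroblasts and their precursors, fell 2.27-fold in wild type (limma adjusted p = 0.000611). Rspo1, a secreted enhancer of Wnt signalling, fell 1.65-fold in wild type (limma adjusted p = 0.00294) and stood at 0.00 ± 0.15 in knockout. Several of these genes are also made by epithelial, endothelial or fibroblast cells of the lung, so the list is not read as mesothelium alone.

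Sulf1, which trims sulfate from heparan chains, was, like Msln, highest in wild-type bleomycin lungs, and its responses were called different between genotypes. It averaged 8.14 ± 0.23 in knockout bleomycin lungs, 8.01 ± 0.10 in knockout saline lungs, 9.42 ± 0.36 in wild-type bleomycin lungs and 8.19 ± 0.16 in wild-type saline lungs (SD, n = 3 each). It rose 2.34-fold in wild type (limma adjusted p = 0.000122), and the knockout response minus the wild-type response was -1.10 ± 0.23 (limma adjusted p = 0.0187). Muc16, whose product binds mesothelin, averaged 5.53 ± 0.48 in knockout bleomycin lungs, 6.00 ± 0.41 in knockout saline lungs, 6.13 ± 0.25 in wild-type bleomycin lungs and 6.70 ± 0.04 in wild-type saline lungs. Averaged over treatments it was 1.57-fold lower in knockout lungs (log2 difference -0.65 ± 0.16; limma adjusted p = 0.0232). Between knockout and wild type 3 of the 29 were higher and 4 lower after bleomycin, against 15.4% of all genes called. After saline limma called 0 of the 29, with 4 at an unadjusted p under 0.05. Among all genes, 0.489% were called after saline and 10.1% had that unadjusted p. Averaged over treatments, 1 of the 29 was called higher and 2 lower, against 8.96% of all genes called.

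Paralogues of the members were compared as well, since they encode the same kinds of protein in other cells. Of 20 measured, 4 rose and 3 fell after bleomycin in wild type (median -0.03), against 27.7% of all genes called. In knockout limma called 0 of the 20, with 2 at an unadjusted p under 0.05. Among all 18194 genes, 3.26% were called in knockout and 3267 genes had that unadjusted p. Lrrn3, a neuronal relative of Lrrn4, fell 2.70-fold in wild type (limma adjusted p = 3e-06), was -0.16 in knockout, and differed between the responses by 1.28 ± 0.17 (limma adjusted p = 0.00257). Cdh11, the mesenchymal cadherin, rose 1.81-fold in wild type (limma adjusted p = 9.44e-05), was 0.12 in knockout, and differed between the responses by -0.73 ± 0.15 (limma adjusted p = 0.0194). Lrrn4 and Cdh3 themselves were not called in either genotype.

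The genes whose levels were most like the mean profile of the 9, among 12051 ranked over the 12 arrays, were Srgap2 (r = 0.870), Igfbp5 (0.863), Rnf121 (0.846), Cops4 (0.837), Nop56 (0.834), Naa25 (0.832), Rpain (0.831), Ppp1r12c (0.829), Phf5a (0.828) and Rhbdf1 (0.824). Igfbp5 is also on the list of other mesothelial genes. Within groups the closest were Rita1 (0.919), Insc (0.915), Itpa (0.913), Defa39 (0.902) and Syt17 (0.900). Both rankings show the extremes of 12051 correlations over 12 arrays, and they are descriptions that do not show a shared cell type.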

How the data were processed

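Lung total RNA of 12 samples was measured on Affymetrix arrays, 1 per sample, and the deposited table holds log2 values for 45101 probe sets, made by the authors with RMA per the submitters' processing notes, which name affy, RMA and limma without versions. No genome build is given in the sources used here. Of the probe sets, 34958 were paired with 1 gene, 932 with several and 9211 with none, and 34754 matched a GRCm38.p6 gene table by Entrez identifier, used for names and gene order only.

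A gene was represented by its probe set of highest mean, which left 18194 genes. limma 3.58.1 (with statmod 1.5.0 in R 4.3.3) fitted 1 mean per group to all 12 arrays. Its eBayes step, without a trend, had 8 residual degrees of freedom and 4.86 prior ones. The 7 contrasts set bleomycin against saline in wild type and in knockout, compared those responses, set knockout against wild type after bleomycin and after saline, and took the average of each kind. Dim probe sets were kept and no fold threshold was applied. The fit was run on simulated data whose genes varied independently. The mesothelial genes vary together, so that run does not speak for their shared variation. SE is from the fit and SD is over 3 arrays; the number of arrays limits the precision. Averages over each list are of log2 values. Figures used matplotlib 3.10.9 in Python 3.11.15.

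The mesothelial genes and all other lists were chosen with earlier results of these data known. All members were named; from each further list, counts, the median and up to 4 genes with the smallest p were given, plus genes described by their role. Genes like the members were the 10 with the highest correlation with their mean profile, scaled per gene, by level, and 5 by deviation from group means. Promoter words were searched in RefSeq windows of 250 bases; 5 of the 9 members had one. The alternatives were a filter at a mean log2 of 5, subtracting array medians, requantiling, trend with robust eBayes, averaging probe sets, all probe sets, fitting only the contrast's groups, array weights, replicate number as a block, at least 2-fold, and each array left out.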

Additional observations from a re-analysis of the deposited data

How the results depend on the processing

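Of the 63 changes of the 9 genes over 7 comparisons, 39 were at least as large as their SE and were followed, and the other 24 were given no direction, 19 of which turned sign in some alternative. Of 657 alternative values for the 39, 631 kept their direction and side of the threshold, 7 lost and 17 gained a call, and 2 turned sign, both for Upk1b with array weights: 0.063 for bleomycin in wild type and 0.017 averaged over genotypes. With the probe sets of a gene averaged, 2 genes were called in knockout against wild type after bleomycin, 1 after saline, and 1 for bleomycin averaged over genotypes. Fitting only the contrast's groups gave 2 calls in knockout against wild type after bleomycin, the second being Upk1b (limma adjusted p = 0.0272). Asking for 2-fold as well left 1 call for bleomycin in wild type, 0 for bleomycin averaged over genotypes and 1 for knockout averaged over treatments. Apart from leaving arrays out, the smallest knockout difference after saline under an alternative was -0.55 for Msln and -0.37 for Upk1b. For Upk3b, Lrrn4 and Aldh1a2 it was -0.18, -0.16 and -0.03. The causes were not tested. Shares of all genes called under each alternative are not set beside the counts of this section. The counts therefore show how calls moved with the settings, and not how the members compare with other genes.

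With 1 array left out in turn, the calls numbered 2 to 3 for bleomycin in wild type, 0 to 0 in knockout, 0 to 1 for the difference between responses, 1 to 2 for knockout against wild type after bleomycin, 0 to 2 after saline, 2 to 3 for bleomycin averaged over genotypes and 2 to 5 for knockout averaged over treatments. Without wild-type saline replicate 1 there were 2 after saline (Upk1b and Bnc1), 1 for the difference (Bnc1) and 5 for knockout averaged over treatments. Without knockout saline replicate 3 the last was 4, and without knockout bleomycin replicate 3 there were 2 after bleomycin (Msln and Wt1).

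With replicate number as a block the calls were 3 for bleomycin in wild type, 0 in knockout, 0 for the difference, 1 for knockout against wild type after bleomycin, 0 after saline, 3 for bleomycin averaged over genotypes and 3 for knockout averaged over treatments. Bnc1 was gained for bleomycin averaged over genotypes (limma adjusted p = 0.0470) and Lrrn4 for knockout averaged over treatments (limma adjusted p = 0.0321). The numbers do not pair the samples: deviations of same-numbered arrays correlated at -0.30 to 0.20, and in 3 of 12 comparisons an array was closest to its own number. Wt1, Cdh3 and Bnc1 gave low signals, which limits what can be seen of them.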
